A study of Mus musculus with 27 samples.

Results

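Cardiac fibroblasts (CFs) of adult mice, transduced with a cocktail of 5 cardiac factors known as HNGMT (Hand2, Nkx2.5, Gata4, Mef2C, Tbx5), were compared after treatment with TGFβ1 and with SB431542 (SB). SB blocks the kinase of the type I TGFβ receptor and, as the study states, also the receptors of activin and nodal. The comparison thus set the TGFβ1 ligand against these blocked receptors, and cultures in the DMSO vehicle were placed between both. The cultures numbered 9 of the 27 in the series, with 3 in TGFβ1 (2 ng/mL), 3 in SB (5 µM) and 3 in DMSO, chosen by their labels. All 9 carried the factors, an rtTA transactivator and a GCaMP reporter under the troponin T promoter, received doxycycline, and were collected at Day 3, with the molecules added from the day of transduction with the factors. The factors came from lentiviral, doxycycline-inducible constructs, the fibroblasts were plated from digested hearts and passaged with no sorting step described, and no CF culture without the factors was analysed here. The protocol text of the labels for the CF cultures describes mouse embryonic fibroblasts (MEFs).

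TGFβ ligands bring the type II receptor to the type I receptor (Tgfbr1), which phosphorylates Smad2 and Smad3. With Smad4 these enter the nucleus and act on genes of extracellular matrix, contractile proteins and feedback inhibitors of the pathway itself. In the heart TGFβ is best known for turning fibroblasts into contractile, matrix-producing myofibroblasts. Cultured fibroblasts also make and activate TGFβ of their own, so a receptor blocker can lower a target gene below its level in the vehicle.

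Total RNA of each culture was hybridised to a whole-transcript Affymetrix array, and values are log2 intensities as deposited, 1 probe set per gene for 19938 genes. A gene was called where its limma p, adjusted by Benjamini-Hochberg across the whole table, was under 0.05 and the group means differed by at least 0.322 log2 units, the study's fold threshold for CFs. The labels call the cultures of a group independent biological replicates. Of 14 endothelial markers 78.6% to 85.7% lay above the array median, depending on the culture, as did 83.3% to 91.7% of 12 fibroblast markers. The share was 0% to 18.2% of 11 leukocyte markers, and of 5 adipocyte markers it was 20% in each SB culture and 0% in the TGFβ1 and DMSO cultures. RNA of endothelial genes was therefore plentiful in cultures labelled as cardiac fibroblasts. In bulk RNA, fewer cells of a type and less RNA per cell cannot be told apart.

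SB replicate 3 stood apart from the other 8 cultures. It had 251 genes at least 2-fold above the mean of SB replicates 1 and 2 and 400 genes at least 2-fold below that mean. The mean level of the 14 endothelial markers was 9.78, 9.80 and 9.77 in the TGFβ1 cultures, 10.57, 10.59 and 9.06 in the SB cultures and 10.42, 10.39 and 10.39 in the DMSO cultures. The mean of the 12 fibroblast markers was 10.56, 10.43 and 10.41 in the TGFβ1 cultures, 10.36, 10.35 and 11.07 in the SB cultures and 10.43, 10.45 and 10.50 in the DMSO cultures. SB replicate 3 was thus the lowest of all 9 cultures in endothelial and the highest in fibroblast markers. The main results are given with and without it.

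TGFβ1 and SB cultures differed at 1567 genes. With TGFβ1, 908 genes (4.55% of those tested) were higher than with SB and 659 (3.31%) were lower, and 216 and 102 of these differed at least 2-fold. When SB replicate 3 was left out, 1426 genes (7.15%) were higher and 1506 (7.55%) lower, so the lower side gained most. The counts of gene lists below are to be read beside these shares of both fits. Of the called genes, 866 higher and 620 lower were shared by both fits, and none changed direction. All 1567 called genes had TGFβ1 and SB cultures that did not overlap, as did 25.7% of all genes tested.

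DMSO lay closer to SB than to TGFβ1 at most of these genes. Where the TGFβ1 culture mean was set to 1 and the SB mean to 0, the DMSO mean had a median position of 0.219 over the genes that were higher with TGFβ1 and 0.239 over those that were lower. A gene was termed graded where DMSO lay between and both steps, TGFβ1 to DMSO and DMSO to SB, reached that threshold of 0.322. It was TGFβ1-sided or SB-sided where only the step of that treatment did, and unresolved where neither did. Graded genes numbered 144 higher (0.722% of all genes) and 88 lower (0.441%) with TGFβ1, which is 14.8% of the called genes. TGFβ1-sided genes made up 57.7%, with 521 higher and 383 lower, and SB-sided genes 4.15%, with 42 higher and 23 lower. The remaining 22.8% were unresolved, and at 0.511% DMSO lay outside by such a step.

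**Figure D1:**
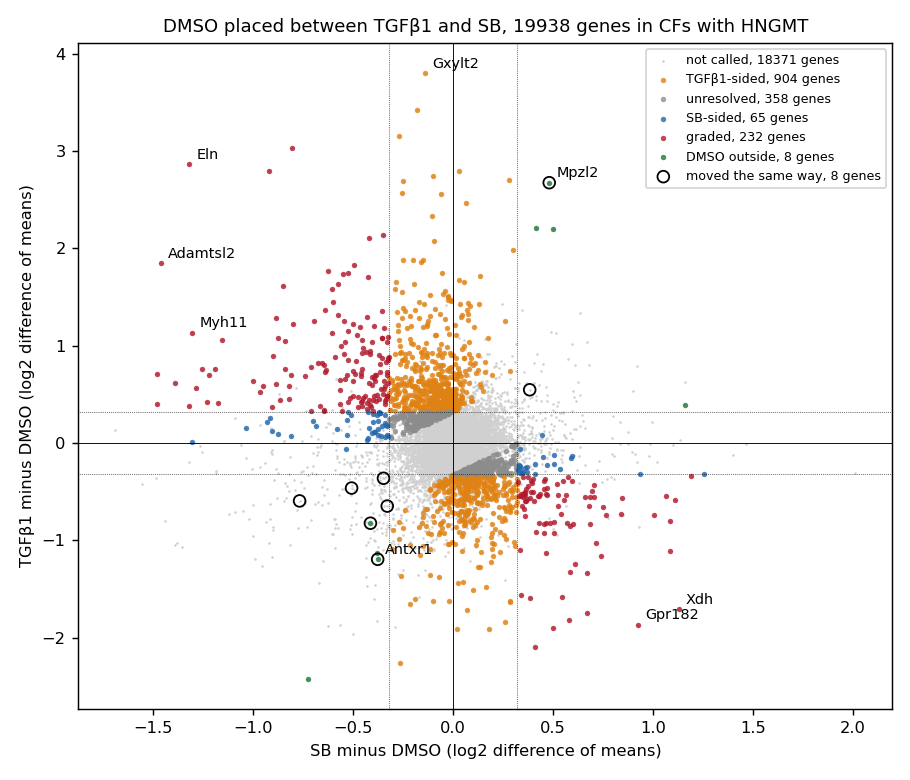
SB minus DMSO (horizontal axis) and TGFβ1 minus DMSO (vertical axis), both as log2 differences of means, with 1 point per gene and dotted lines at the threshold of 0.322. Called genes are coloured by the place of DMSO: the 904 TGFβ1-sided genes form vertical bands around zero SB effect, the 232 graded genes lie in the upper left and lower right, and the ringed 8 genes moved the same way. Both axes share the DMSO cultures, so the slope of the cloud is not a result.

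The steps themselves were not tested one by one in this sorting, and both share the 3 DMSO cultures. A stricter view asked for all 9 cultures in order. TGFβ1 was highest, DMSO next and SB lowest without overlap at 446 genes (2.24%), and the reverse held at 309 genes (1.55%). Among the called genes these were 341 and 197, of which 130 and 61 were graded by fold as well. Graded genes in the fit without SB replicate 3 were 178 higher (0.893%) and 231 lower (1.16%), and 109 higher and 69 lower genes were graded in both fits.

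The 10 genes with the largest increase over SB included an elastic fibre gene and several secreted factors. Eln, which encodes tropoelastin, had 12.49, 12.48 and 12.50 log2 units in the TGFβ1 cultures, 8.34, 8.44 and 8.14 in the SB cultures and 9.61, 9.63 and 9.63 in the DMSO cultures. No culture overlapped another group, TGFβ1 and SB differed by 4.18 ± 0.07 (SE, adjusted p = 1.0e-07), and the steps were 2.86 for TGFβ1 minus DMSO and -1.32 for SB minus DMSO. Gxylt2, a xylosyltransferase that modifies Notch, had 11.60, 11.58 and 11.61 in the TGFβ1 cultures, 7.37, 7.37 and 8.24 in the SB cultures and 7.71, 7.83 and 7.85 in the DMSO cultures. Here the SB and DMSO cultures overlapped through SB replicate 3, and the TGFβ1 minus SB difference of 3.94 (adjusted p = 2.0e-05) lay almost wholly on the TGFβ1 side. In the fit without that culture Gxylt2 was graded, with SB minus DMSO at -0.43 (adjusted p = 0.0035).

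Igf1, a growth factor of the insulin family, had 11.27, 11.31 and 11.32 in the TGFβ1 cultures, 7.39, 7.30 and 8.08 in the SB cultures and 8.41, 8.65 and 8.47 in the DMSO cultures. The chemokine Ccl17, a ligand of CCR4, had 12.13, 12.15 and 12.09 in the TGFβ1 cultures, 7.80, 8.04 and 9.04 in the SB cultures and 9.06, 9.11 and 9.12 in the DMSO cultures. Both were graded, with all 9 cultures in order, and differed between TGFβ1 and SB by 3.71 (adjusted p = 1.5e-05) and 3.83 (adjusted p = 7.8e-05). Adamtsl2, a secreted protein that binds the latent TGFβ complex, had 11.52, 11.56 and 11.57 in the TGFβ1 cultures, 8.47, 8.29 and 7.98 in the SB cultures and 9.69, 9.69 and 9.72 in the DMSO cultures. It was the gene with the largest smaller step: 1.85 for TGFβ1 minus DMSO (adjusted p = 6.6e-05) and -1.46 for SB minus DMSO (adjusted p = 0.0045).

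Other genes among the 10 highest were TGFβ1-sided in the fit with all cultures. Rnase2a, a secreted ribonuclease of the eosinophil-associated family, was 9.08 on average with TGFβ1, 5.48 with SB and 5.66 with DMSO. Cyp11a1, the side-chain cleavage enzyme that starts steroid synthesis, was 10.12 with TGFβ1, 7.28 with SB and 7.38 with DMSO. Its SB cultures had 6.81, 6.99 and 8.04, and without SB replicate 3 it was graded, with SB minus DMSO at -0.48 (adjusted p = 0.011). The mechanosensitive channel Piezo2, the 14-3-3 protein Sfn and Mab21l4 completed the set, with TGFβ1 minus SB differences of 2.82, 2.94 and 3.42 (adjusted p = 3.2e-06, 1.2e-05 and 9.5e-07). In the fit without SB replicate 3, Anxa8, an annexin, and Fxyd6, a regulator of the sodium pump, entered the 10 highest at 3.26 and 3.22 (adjusted p = 2.9e-08 and 9.5e-08).

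**Figure D2:**
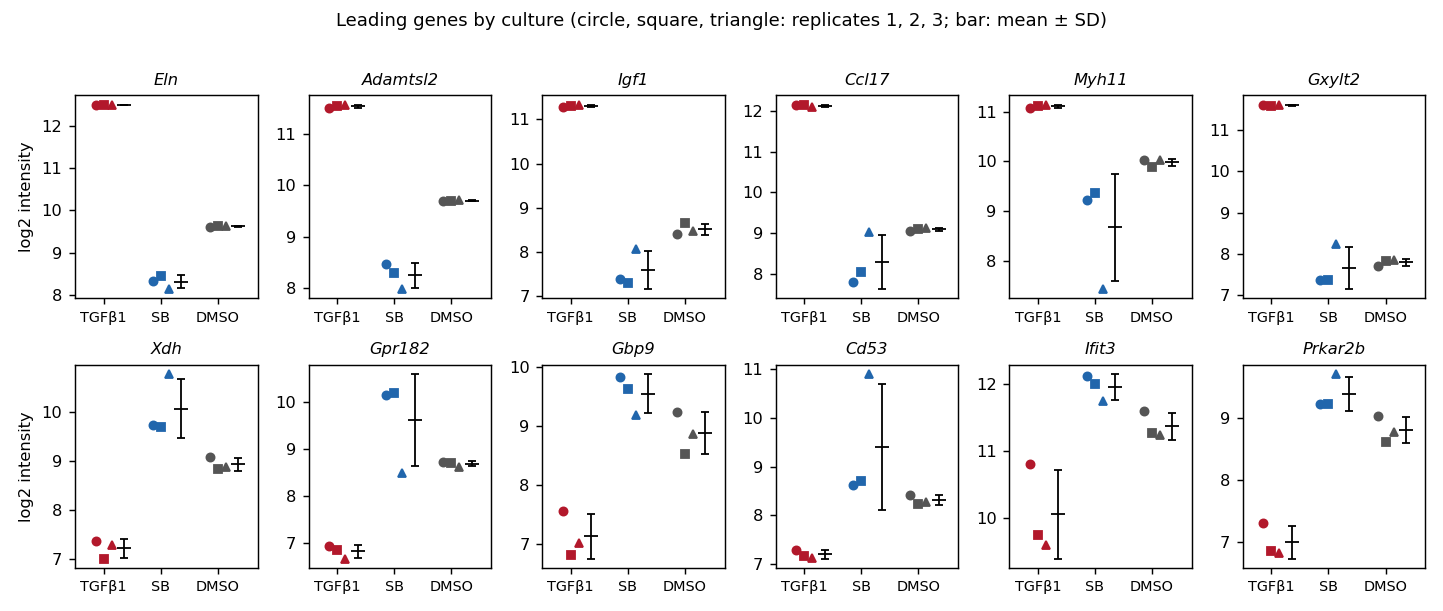
Log2 intensity in each of the 3 TGFβ1, 3 SB and 3 DMSO cultures for 6 genes that were higher (upper row) and 6 that were lower (lower row) with TGFβ1 than with SB. Eln averages 12.49 with TGFβ1 and 8.31 with SB, with DMSO between at 9.63, whereas SB replicate 3 (triangle) leaves the other SB cultures at Myh11, Gpr182 and Cd53.

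The 10 genes with the largest decrease included some that interferon induces and some known from endothelial cells. Xdh, which makes uric acid, had 7.37, 7.01 and 7.28 in the TGFβ1 cultures, 9.74, 9.69 and 10.76 in the SB cultures and 9.08, 8.84 and 8.87 in the DMSO cultures. It was graded, with all 9 cultures in order and a difference of -2.84 ± 0.26 (SE, adjusted p = 3.3e-04). Gpr182, a receptor of endothelial cells, had 6.94, 6.87 and 6.68 in the TGFβ1 cultures, 10.17, 10.20 and 8.49 in the SB cultures and 8.73, 8.71 and 8.63 in the DMSO cultures. SB replicate 3 fell just below the DMSO cultures at this gene, and without it the TGFβ1 minus SB difference was -3.35 in place of -2.79.

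Cd53, a tetraspanin known from leukocytes, had 7.30, 7.17 and 7.14 in the TGFβ1 cultures, 8.62, 8.70 and 10.88 in the SB cultures and 8.42, 8.24 and 8.27 in the DMSO cultures. Here SB replicate 3 lay far above the others, and the difference of -2.19 (adjusted p = 0.032) became -1.45 (adjusted p = 3.2e-06) without it. Prkar2b, a regulatory subunit of protein kinase A, differed from SB by -2.40 (adjusted p = 1.0e-04). The interferon-inducible genes Gbp9, Ifi203 and Iigp1 differed by -2.42, -2.12 and -2.09 (adjusted p = 5.9e-04, 0.0034 and 0.01), and Gm4951 and BC023105 by -2.51 and -2.40 (adjusted p = 0.004 and 0.0048). In the fit without SB replicate 3, Apoe, the apolipoprotein of lipid transport, Pde7b, a cyclic AMP phosphodiesterase, and Rapgef5, an exchange factor for Rap GTPases, entered the 10 lowest at -2.43, -2.40 and -2.54 (adjusted p = 2.9e-07, 1.9e-07 and 7.8e-08). Apoe was not called with that culture (adjusted p = 0.27).

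Of 28 measured genes listed as direct TGFβ targets, 15 were higher and 1 lower with TGFβ1 than with SB, where 4.55% and 3.31% of all genes were, with a median difference of 0.58, beside -0.0041 over all genes. The list averaged 10.32, 10.30 and 10.27 in the TGFβ1 cultures, 9.48, 9.48 and 9.49 in the SB cultures and 9.71, 9.70 and 9.73 in the DMSO cultures. The groups did not overlap, SB replicate 3 lay with the other SB cultures, and DMSO stood nearer to SB. Of the 16 called members 6 were graded, 9 TGFβ1-sided and 1 unresolved.

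Feedback inhibitors of the pathway were among the targets. Pmepa1, which holds receptor-activated Smads back, had 12.50, 12.59 and 12.45 in the TGFβ1 cultures, 10.16, 10.09 and 10.66 in the SB cultures and 10.84, 10.89 and 10.90 in the DMSO cultures. It was graded, with a difference of 2.21 (adjusted p = 3.7e-05). Skil, a Smad corepressor, had 10.33, 10.28 and 10.17 in the TGFβ1 cultures, 9.17, 9.14 and 9.15 in the SB cultures and 9.79, 9.61 and 9.75 in the DMSO cultures, a graded difference of 1.11 (adjusted p = 2.2e-05). Ldlrad4, which like Pmepa1 inhibits Smads, was graded too (1.28, adjusted p = 6.6e-05), and Smad7, the inhibitory Smad, was higher by 0.50 (adjusted p = 0.0042) with neither step reaching 0.322.

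Other targets rose as well, most of them on the TGFβ1 side. Ltbp2, a matrix protein related to the latent TGFβ binding proteins, had 11.20, 11.18 and 11.17 in the TGFβ1 cultures, 9.54, 9.55 and 8.39 in the SB cultures and 9.24, 9.34 and 9.39 in the DMSO cultures. Nox4, an NADPH oxidase, Postn, which encodes periostin, and Bhlhe40, a transcriptional repressor, were higher by 1.60, 1.48 and 1.01 (adjusted p = 1.7e-04, 0.014 and 1.1e-04). The matrix protein Tgfbi averaged 11.97 with TGFβ1, 10.72 with SB and 10.68 with DMSO (adjusted p = 7.5e-06). Nrep and the integrin chain Itga11, which binds collagen, were graded, at 2.01 and 1.49 (adjusted p = 1.2e-04 and 0.0018). Ccn2, the connective tissue growth factor, was already at 13.41 in the DMSO cultures and differed between TGFβ1 and SB by 0.65 (adjusted p = 0.0021). Cdkn2b, an inhibitor of G1 kinases, and Dact1 differed by 0.50 and 0.70 (adjusted p = 0.0044 and 0.049).

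Some listed targets went the other way or did not pass. Snai2, a repressor of epithelial genes, was lower with TGFβ1 by a difference of -0.70 (adjusted p = 0.0011), with 8.93, 8.60 and 8.77 in the TGFβ1 cultures, 9.42, 9.49 and 9.48 in the SB cultures and 9.45, 9.28 and 9.40 in the DMSO cultures. Its relative Snai1 had 10.00, 9.95 and 9.98 in the TGFβ1 cultures, 9.24, 9.16 and 10.13 in the SB cultures and 9.11, 9.53 and 9.39 in the DMSO cultures, and its difference of 0.47 was called only without SB replicate 3 (0.78, adjusted p = 8.6e-04). Klf10, named for its early induction by TGFβ, and Lmcd1 had differences of -0.30 and -0.57 and were called lower without that culture (adjusted p = 5.2e-04 and 1.4e-05). Ski, Tgif1, Junb and Scx joined the higher side without it, which gave 20 higher and 3 lower.

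Promoters of targets are shown for the letters CAGAC, the core that Smad3 and Smad4 bind. The windows hold 250 bases before to 50 after the transcription start, as given by RefSeq on GRCm38.p6, and capitals mark CAGAC on either strand (GTCTG when read on the printed strand). Adamtsl2 lies at chr2:27079129-27079428 on the plus strand and Ltbp2 at chr12:84876442-84876741 on the minus strand.
Adamtsl2: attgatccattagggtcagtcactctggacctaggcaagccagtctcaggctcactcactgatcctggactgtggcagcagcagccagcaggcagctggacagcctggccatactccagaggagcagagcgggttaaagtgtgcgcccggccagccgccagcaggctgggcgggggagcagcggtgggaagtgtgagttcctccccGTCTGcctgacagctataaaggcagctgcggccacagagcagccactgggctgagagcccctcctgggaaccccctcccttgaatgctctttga
Ltbp2: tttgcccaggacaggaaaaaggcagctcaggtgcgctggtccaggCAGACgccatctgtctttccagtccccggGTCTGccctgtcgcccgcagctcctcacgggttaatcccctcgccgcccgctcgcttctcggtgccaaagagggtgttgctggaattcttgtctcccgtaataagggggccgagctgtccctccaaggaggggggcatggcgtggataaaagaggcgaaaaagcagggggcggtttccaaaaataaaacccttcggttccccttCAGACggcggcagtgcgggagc
CAGAC stood in 1 place in the first window and 3 in the second. Of the 28 measured targets 17 had a window, and 10 of these (58.8%) held CAGAC in any window, beside 53.2% of the 27025 genes with a window and 58.3% of the 695 called higher genes with one. Among the 15 higher targets it was 7 of 8 with a window, and among graded higher genes 60.8% of 97. A match of 5 letters is common and says nothing of binding.

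The ligands, receptors and activators of the pathway differed in both directions. Of 24 measured, 8 were higher and 3 lower, and the list's median difference was -0.01. Itgb5, a chain of an integrin that can activate latent TGFβ, had 13.10, 13.13 and 13.05 in the TGFβ1 cultures, 11.09, 11.10 and 11.92 in the SB cultures and 11.79, 11.78 and 11.81 in the DMSO cultures, and was graded (1.72, adjusted p = 9.4e-04). Itgb8, a chain of another such integrin, moved the opposite way, with 6.99, 7.20 and 7.38 in the TGFβ1 cultures, 8.14, 8.06 and 8.34 in the SB cultures and 7.86, 7.82 and 7.82 in the DMSO cultures (-0.99, adjusted p = 5.9e-04). The latent TGFβ binding proteins Ltbp1, Ltbp3 and Ltbp4 were higher by 0.92, 0.45 and 1.64 (adjusted p = 0.023, 5.0e-04 and 5.3e-04).

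Of the receptors, Tgfbr3, the coreceptor betaglycan, fell. It had 8.07, 8.09 and 8.01 in the TGFβ1 cultures, 10.22, 10.14 and 9.54 in the SB cultures and 9.67, 9.70 and 9.67 in the DMSO cultures, a difference of -1.91 (adjusted p = 1.6e-04). Tgfbr1, whose kinase SB blocks, was higher by 0.43 (adjusted p = 0.032), and Tgfbr2 had a difference of -0.46 (adjusted p = 0.17), which was called without SB replicate 3 (-0.71, adjusted p = 7.6e-06). The RNA of Tgfb1 itself was higher by 0.41 (adjusted p = 0.031), a call that was lost without SB replicate 3, where the difference was 0.30 and under the fold threshold (adjusted p = 0.011). Smad3 was lower by a difference of -0.55 (adjusted p = 0.0024), while Smad2 and Smad4 had differences of -0.18 and -0.06 (adjusted p = 0.25 and 0.47). The activin antagonists Fst and Fstl3 were higher by 1.95 and 1.13 (adjusted p = 3.0e-05 and 0.028), Fst being graded. The other members were not called with all cultures. Without SB replicate 3, 9 were higher and 6 lower, among them Inhba, a chain of activin, at 0.70 (adjusted p = 3.0e-05) and Tgfb2, a further ligand, at -0.38 (adjusted p = 2.4e-04).

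Genes of the BMP branch, which signals through Smad1, Smad5 and Smad9, gave 1 higher and 3 lower of 23 measured. Over all genes 4.55% were higher and 3.31% lower, so the 1 higher gene was near that share. The higher gene was the ligand Gdf6, at 10.23, 10.31 and 10.39 in the TGFβ1 cultures, 9.38, 9.41 and 9.05 in the SB cultures and 10.22, 10.13 and 10.21 in the DMSO cultures. It was SB-sided (1.03, adjusted p = 3.2e-04), with TGFβ1 just above DMSO and SB well below. Lower were Bmp2 and the antagonists Grem1 and Chrdl1, at -0.44, -0.62 and -0.48 (adjusted p = 0.025, 0.0077 and 0.029). Bmp2 was dim, averaging 5.87 with TGFβ1, 6.31 with SB and 6.09 with DMSO. With SB replicate 3 left out, 2 of the 23 were higher and 8 lower, where 7.15% and 7.55% of all genes were. The 2 higher genes were thus near that share. The transcriptional regulators Id1, Id2 and Id3, which BMP induces, then differed by -0.78, -1.04 and -0.82 (adjusted p = 9.7e-05, 1.4e-05 and 9.4e-05), as did Smad9 by -0.99 (adjusted p = 4.2e-06). With that culture in the fit their differences were -0.50, -0.57, -0.32 and -0.51, and none was called.

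Most genes of collagen processing were higher with TGFβ1. Of 17 measured genes of collagen modification and crosslinking, 14 were higher and none lower (15 and none without SB replicate 3), with a median difference of 0.61. The list averaged 11.72, 11.67 and 11.66 in the TGFβ1 cultures, 10.83, 10.85 and 11.08 in the SB cultures and 11.16, 11.15 and 11.16 in the DMSO cultures. Lox, the lysyl oxidase that crosslinks collagen and elastin, had 13.18, 13.09 and 13.08 in the TGFβ1 cultures, 10.84, 10.85 and 11.80 in the SB cultures and 12.14, 11.98 and 11.99 in the DMSO cultures. It was graded (1.95, adjusted p = 0.0011), with SB replicate 3 nearest to DMSO. Its relatives Loxl3 and Loxl4 were higher by 0.75 and 1.39 (adjusted p = 3.1e-04 and 0.012). The hydroxylases P4ha3, Plod2 and P3h1 and the galactosyltransferase Colgalt1 were higher by 1.85, 0.84, 0.92 and 0.61 (adjusted p = 0.02, 5.6e-05, 5.9e-06 and 4.6e-04).

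Of 27 collagen chains, 12 were higher and none lower with all cultures, against 16 and 1 without SB replicate 3. The 1 lower chain was below the 7.55% of all genes lower in that fit, where 7.15% were higher. Col11a1, a chain of minor fibrils, had 10.67, 10.61 and 10.59 in the TGFβ1 cultures, 8.77, 8.77 and 8.67 in the SB cultures and 9.36, 9.21 and 9.36 in the DMSO cultures, and was graded (1.89, adjusted p = 1.8e-06). Col3a1, of the main fibrils of soft tissue, had 10.27, 10.30 and 10.19 in the TGFβ1 cultures, 8.96, 8.84 and 9.23 in the SB cultures and 9.46, 9.53 and 9.53 in the DMSO cultures (1.24, adjusted p = 9.1e-05). Col5a2 was graded at 1.51 (adjusted p = 2.6e-04). Col4a3 and Col4a4, of specialised basement membranes, were higher by 0.78 and 0.61 (adjusted p = 1.6e-05 and 5.6e-05), the second on the SB side. Collagens held 3 of the 65 SB-sided genes.

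Elastic fibre genes split. Of 12 measured, 4 were higher and 2 lower (6 and 2 without SB replicate 3). Beside Eln, the elastin assembly protein Fbln5 was graded, with 12.92, 12.96 and 12.84 in the TGFβ1 cultures, 11.41, 11.36 and 10.33 in the SB cultures and 12.51, 12.51 and 12.51 in the DMSO cultures (1.87, adjusted p = 0.0022). Lower were Efemp1, at 10.39, 10.26 and 10.37 in the TGFβ1 cultures, 12.29, 12.20 and 12.26 in the SB cultures and 12.05, 11.86 and 11.98 in the DMSO cultures (-1.91, adjusted p = 2.6e-06), and Fbln1 (-0.57, adjusted p = 0.0016). Fbln5, Efemp1 and Fbln1 belong to the fibulin family, whose members therefore moved in opposite directions. Of 17 matricellular genes, which modulate cell contact with the matrix, 7 were higher and none lower (7 and 1 without SB replicate 3). Beside Postn, given above, these included Ccn4, Ccn5 and Cthrc1, all graded, at 1.23, 1.53 and 1.61 (adjusted p = 0.0079, 0.047 and 0.0056), with Thbs2 and Comp at 0.78 and 0.50 (adjusted p = 0.0073 and 0.0064). The 1 lower matricellular gene without SB replicate 3 was near the 7.55% of all genes lower in that fit, where 7.15% were higher.

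Among 26 proteoglycans and matrix proteases, 4 were higher and 1 lower, and without SB replicate 3 8 were higher and 1 lower. The 1 lower gene was near the 3.31% of all genes called lower with all cultures, while 4.55% of all genes were higher. Without that culture 7.55% of all genes were lower and 7.15% higher. Acan, the cartilage proteoglycan aggrecan, was graded at 1.17, and the proteases Adamts12, Mmp2 and Mmp9 were higher by 1.48, 0.68 and 1.70 (adjusted p = 8.2e-04, 3.1e-05, 8.2e-05 and 0.021). Mmp9 had 10.35, 10.20 and 9.91 in the TGFβ1 cultures, 7.95, 7.96 and 9.46 in the SB cultures and 7.94, 7.97 and 7.96 in the DMSO cultures, so the SB mean above DMSO rested on SB replicate 3. The small proteoglycan Podn was lower by a difference of -0.71 (adjusted p = 0.0042). Dcn and Lum, fibroblast genes of the same family, were lower as well, at -0.93 and -1.60 (adjusted p = 0.0014 and 2.5e-04).

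Contractile genes of myofibroblasts and smooth muscle were higher in 8 of 20 cases and lower in none with all cultures, and higher in 11 and lower in 3 without SB replicate 3. Myh11, the smooth muscle myosin heavy chain, had 11.09, 11.11 and 11.14 in the TGFβ1 cultures, 9.23, 9.37 and 7.44 in the SB cultures and 10.02, 9.89 and 10.03 in the DMSO cultures. It was graded (2.43, adjusted p = 0.0095), with SB replicate 3 far below the other SB cultures, and was 1.81 without it. Cnn1, calponin, had 11.84, 11.76 and 11.88 in the TGFβ1 cultures, 10.11, 10.30 and 8.42 in the SB cultures and 10.77, 10.76 and 10.77 in the DMSO cultures (2.21, adjusted p = 0.012). Pdlim3, which links to the actin cytoskeleton, was graded with 11.76, 11.46 and 11.50 in the TGFβ1 cultures, 9.76, 9.69 and 8.69 in the SB cultures and 10.87, 10.84 and 10.87 in the DMSO cultures (2.19, adjusted p = 1.0e-03). Tagln and Myl9 differed less, by 0.82 and 0.75 (adjusted p = 2.3e-05 and 6.6e-04). Acta2, smooth muscle actin, was near the top of the scale in all groups, at 13.65 with TGFβ1, 13.37 with SB and 13.44 with DMSO, and missed the fold threshold (0.28, adjusted p = 0.0021).

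Cardiac genes did not move as a block. Of 27 sarcomere genes 6 were higher and 1 lower (9 and 2 without SB replicate 3). The lower counts were near the share of all genes, at 3.31% with all cultures and 7.55% without SB replicate 3. The shares of all genes that were higher were 4.55% and 7.15%. Xirp1, an actin-binding protein of the intercalated disc, had 10.71, 10.65 and 10.74 in the TGFβ1 cultures, 9.04, 9.06 and 9.04 in the SB cultures and 9.52, 9.54 and 9.47 in the DMSO cultures, and was graded (1.65, adjusted p = 9.5e-07). Tnnc1, the slow and cardiac troponin C, was graded with 12.36, 12.41 and 12.50 in the TGFβ1 cultures, 11.11, 11.16 and 10.72 in the SB cultures and 11.69, 11.76 and 11.76 in the DMSO cultures (1.42, adjusted p = 1.0e-04). Tnni3, the adult cardiac troponin I, went the other way, with 9.53, 9.43 and 9.45 in the TGFβ1 cultures, 10.74, 10.84 and 10.13 in the SB cultures and 10.76, 10.92 and 10.81 in the DMSO cultures (-1.10, adjusted p = 0.0039). The slow skeletal isoform Tnni1, which the fetal heart also uses, had a difference of 1.37 that just missed (adjusted p = 0.052), and was called without SB replicate 3 (0.85, adjusted p = 2.4e-06). Lmod2, an actin filament regulator, was higher by 0.59 (adjusted p = 5.0e-04).

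Of 24 genes of calcium handling and conduction, 3 were higher and 3 lower with all cultures, and 4 were higher and 7 lower without SB replicate 3. The shares of all genes rose as well, from 4.55% higher and 3.31% lower to 7.15% and 7.55%. Cacna1g, a T-type calcium channel, and Slc8a1, the sodium-calcium exchanger, were graded and higher by 0.99 and 0.77 (adjusted p = 0.0063 and 0.006). Ryr2, the calcium release channel, Kcnj2, an inward rectifier, and Pln, phospholamban, were lower, at -0.56, -0.55 and -0.51 (adjusted p = 0.0033, 0.02 and 0.049). Pln is a dim gene here, with 6.44, 6.49 and 6.31 in the TGFβ1 cultures, 7.07, 7.12 and 6.57 in the SB cultures and 6.71, 6.71 and 6.84 in the DMSO cultures. Kcnj2 was dimmer still, averaging 5.82 with TGFβ1, 6.36 with SB and 6.49 with DMSO.

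Of 23 cardiac regulators and natriuretic peptides, 3 were higher and 3 lower (3 and 6 without SB replicate 3). The shares of all genes were 4.55% and 3.31%, and 7.15% and 7.55% without that culture. Nppb, brain natriuretic peptide, had 12.32, 12.28 and 12.33 in the TGFβ1 cultures, 10.48, 10.69 and 11.38 in the SB cultures and 11.10, 10.97 and 11.00 in the DMSO cultures (1.46, adjusted p = 0.0021). Smyd1, a methyltransferase of muscle, and Hey2, a Notch target, were graded and higher by 1.31 and 0.94 (adjusted p = 0.0088 and 6.9e-05). Tbx20 had 10.71, 10.61 and 10.70 in the TGFβ1 cultures, 11.72, 11.70 and 11.64 in the SB cultures and 11.76, 11.64 and 11.75 in the DMSO cultures, and was TGFβ1-sided (-1.02, adjusted p = 1.2e-05). Ppargc1a, a coactivator of mitochondrial genes, was lower at -0.82 (adjusted p = 0.017). Gata4 was lower by a difference of -0.54 (adjusted p = 1.6e-04), while Hand2, Nkx2-5, Mef2c and Tbx5 were not called. For these 5 the delivered and the endogenous RNA cannot be told apart. Myh6 and Myocd were not called with all cultures (-0.18 and -0.56, adjusted p = 0.18 and 0.31), and Myocd was lower without SB replicate 3 (-0.97, adjusted p = 2.8e-06).

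Genes induced by interferon, whose products detect viral RNA and block its spread, were lower with TGFβ1 than with SB in 17 of 23 cases and higher in none. The median difference was -0.68, and 9 of the 17 were graded, 4 TGFβ1-sided and 4 unresolved. The list averaged 9.64, 9.17 and 9.24 in the TGFβ1 cultures, 10.25, 10.11 and 10.29 in the SB cultures and 10.02, 9.75 and 9.75 in the DMSO cultures. TGFβ1 replicate 1 was the highest of its group and DMSO replicate 1 the highest of its own, yet every TGFβ1 culture lay below every SB and DMSO culture. The count was 17 without SB replicate 3 as well, with a median of -0.75.

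Ifit3, one of the antiviral proteins that interferon induces most, had 10.81, 9.74 and 9.60 in the TGFβ1 cultures, 12.12, 12.00 and 11.75 in the SB cultures and 11.60, 11.28 and 11.24 in the DMSO cultures. TGFβ1 and SB differed by -1.91 (adjusted p = 0.0044), and TGFβ1 replicate 1 stood a log2 unit above its group. Rsad2, viperin, had 9.08, 7.98 and 7.68 in the TGFβ1 cultures, 9.80, 9.34 and 10.30 in the SB cultures and 9.11, 8.82 and 8.99 in the DMSO cultures (-1.56, adjusted p = 0.028). Stat2, which carries the interferon signal to the nucleus, had 10.42, 9.99 and 10.05 in the TGFβ1 cultures, 11.12, 10.98 and 11.22 in the SB cultures and 10.85, 10.62 and 10.68 in the DMSO cultures (-0.95, adjusted p = 0.0017). All 3 were graded, and so was Ifit2 at -1.43 (adjusted p = 0.0055). Slfn5, a schlafen gene, was TGFβ1-sided at -1.64 (adjusted p = 0.0011), and the proteasome subunits Psmb8 and Psmb9 differed by -0.55 and -0.57 (adjusted p = 0.012 and 0.024).

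The promoter windows of 4 of these genes are shown for a letter pattern that the choice of the list did not use, and all 4 were picked as holding it. Capitals mark GAAANNGAAA on either strand (TTTCNNTTTC when read on the printed strand), the core of the element to which interferon-activated Stat and Irf factors bind. Ifit3 lies at chr19:34583279-34583578 and Stat2 at chr10:128270248-128270547, both on the plus strand, Rsad2 at chr12:26456403-26456702 on the minus strand and Slfn5 at chr11:82951852-82952151 on the plus strand (GRCm38.p6, RefSeq).
Ifit3: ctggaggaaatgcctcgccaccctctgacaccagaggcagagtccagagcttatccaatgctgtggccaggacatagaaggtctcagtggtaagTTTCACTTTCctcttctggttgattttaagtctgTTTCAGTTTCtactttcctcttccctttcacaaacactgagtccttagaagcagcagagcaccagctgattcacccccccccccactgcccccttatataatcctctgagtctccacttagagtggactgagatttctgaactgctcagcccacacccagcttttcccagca
Rsad2: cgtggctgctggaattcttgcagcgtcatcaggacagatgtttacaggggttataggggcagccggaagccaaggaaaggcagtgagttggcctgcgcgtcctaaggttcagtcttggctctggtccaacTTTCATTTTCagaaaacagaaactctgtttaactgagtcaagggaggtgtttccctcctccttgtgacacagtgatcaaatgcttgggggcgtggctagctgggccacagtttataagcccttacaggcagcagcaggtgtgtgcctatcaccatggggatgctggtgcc
Stat2: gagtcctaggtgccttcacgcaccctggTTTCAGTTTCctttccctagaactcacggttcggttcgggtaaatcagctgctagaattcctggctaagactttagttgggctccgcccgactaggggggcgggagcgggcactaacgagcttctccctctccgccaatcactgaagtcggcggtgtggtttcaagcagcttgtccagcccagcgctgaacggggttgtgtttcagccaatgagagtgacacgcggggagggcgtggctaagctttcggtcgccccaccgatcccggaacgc
Slfn5: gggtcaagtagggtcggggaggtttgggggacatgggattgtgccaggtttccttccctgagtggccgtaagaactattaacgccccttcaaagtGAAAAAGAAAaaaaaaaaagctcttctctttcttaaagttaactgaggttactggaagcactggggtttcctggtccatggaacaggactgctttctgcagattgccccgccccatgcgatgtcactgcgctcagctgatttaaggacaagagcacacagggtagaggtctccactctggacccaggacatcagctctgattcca
The pattern stood in 2 places at Ifit3 and in 1 at each of the others. Of the 23 listed interferon genes 19 had a window and 10 of these held the pattern, and of the 17 lower ones 15 had a window and 9 held it. Among those without it were Ifit2, Psmb8 and Psmb9. It was found in 10 of 52 graded lower genes with a window (19.2%) and 3 of 97 graded higher genes (3.09%). Of all 27025 genes with a window 3.99% held it. Interferon genes are known to carry this element, so the counts describe the list.

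Complement and acute phase genes were lower in 5 of 17 cases and higher in 2, and without SB replicate 3 lower in 9 and higher in 2. Serping1, the inhibitor of the first complement component, had 9.85, 9.63 and 9.80 in the TGFβ1 cultures, 11.06, 11.11 and 12.78 in the SB cultures and 10.55, 10.61 and 10.53 in the DMSO cultures, and was graded (-1.89, adjusted p = 0.02). SB replicate 3 was the highest, and the difference without it was -1.32 (adjusted p = 3.6e-06). Lbp, which binds bacterial lipopolysaccharide, C4b and Cfb were lower at -1.16, -0.54 and -0.32 (adjusted p = 0.0089, 5.5e-04 and 0.0044). Cfb was no longer called without SB replicate 3, at -0.29 and under the fold threshold (adjusted p = 0.0024). The receptor C3ar1 was higher and graded (1.45, adjusted p = 4.9e-04). Of 23 chemokines, cytokines and prostaglandin enzymes, 3 were higher and 2 lower with all cultures, and 9 were higher and 2 lower without SB replicate 3. All genes gave 4.55% higher and 3.31% lower with all cultures, and 7.15% and 7.55% without that culture. The 2 lower genes of the second fit were near that share. Cxcl12, which draws stem and immune cells, and Cx3cl1, fractalkine, were higher by 1.92 and 1.35 beside Ccl17 (adjusted p = 0.0016 and 3.2e-04), and Ccl5 was lower at -1.5 (adjusted p = 0.012). Ptgs2, the inducible cyclooxygenase, had 12.15, 12.14 and 12.05 in the TGFβ1 cultures, 10.24, 10.31 and 12.25 in the SB cultures and 10.76, 10.63 and 10.67 in the DMSO cultures, and was called only without SB replicate 3 (1.84, adjusted p = 3.1e-07).

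**Figure D3:**
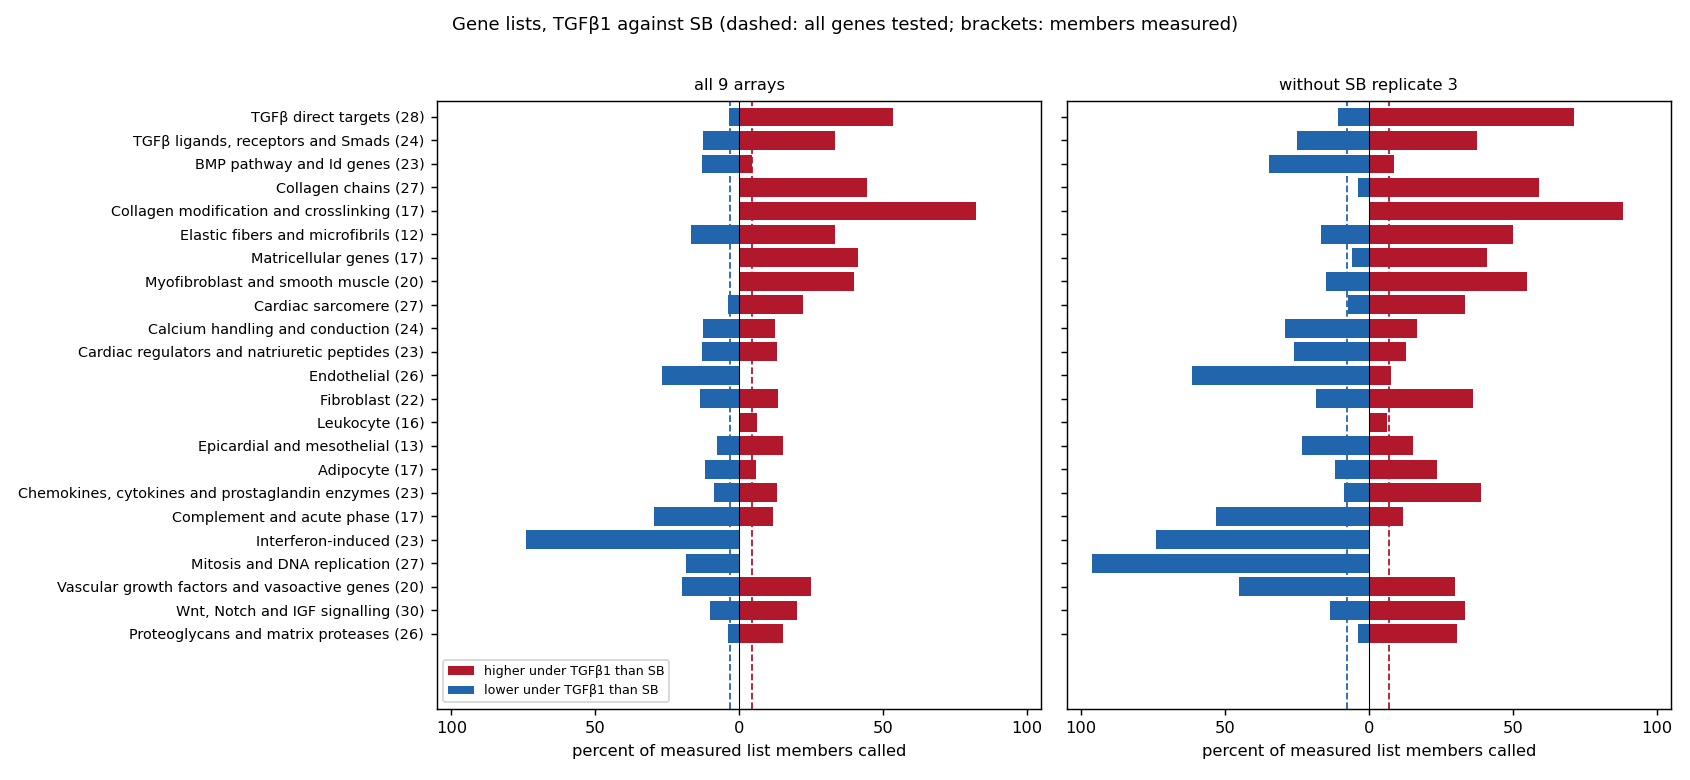
Percent of the measured members of each gene list called higher (red, to the right) or lower (blue, to the left) with TGFβ1 than with SB, from all 9 arrays (left panel) and without SB replicate 3 (right panel), with dashed lines at the percent of all genes. Interferon-induced genes number 17 of 23 on the lower side in both panels, while lower mitotic genes number 5 of 27 with that culture and 26 of 27 without it.

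Endothelial genes turned on SB replicate 3. Of 26 measured, 7 were lower and none higher with all cultures, and 16 were lower and 2 higher without it, with medians of -0.28 and -0.88. Of all genes 3.31% were lower with all cultures, and 7.55% lower and 7.15% higher without that culture. The 2 higher genes were near that last share. The list averaged 9.40, 9.39 and 9.38 in the TGFβ1 cultures, 10.15, 10.19 and 8.88 in the SB cultures and 9.93, 9.92 and 9.92 in the DMSO cultures. Every TGFβ1 culture lay below every DMSO culture and below SB replicates 1 and 2, whereas SB replicate 3 lay below them all. Graded endothelial genes numbered 3 with that culture and 12 without it.

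Gimap4 and Robo4 were low with TGFβ1 whichever SB culture was taken. Robo4, a guidance receptor of vessels, had 7.65, 7.62 and 7.63 in the TGFβ1 cultures, 9.03, 9.19 and 8.38 in the SB cultures and 8.13, 8.20 and 8.22 in the DMSO cultures, and was graded (-1.23, adjusted p = 0.0032). Gimap4, a GTPase of the immune-associated family, had 6.05, 5.91 and 6.06 in the TGFβ1 cultures, 7.54, 7.65 and 7.90 in the SB cultures and 6.61, 6.55 and 6.61 in the DMSO cultures (-1.69, adjusted p = 1.8e-05). The transcription factors Bcl6b and Sox18 were lower at -0.99 and -0.87 (adjusted p = 8.9e-05 and 0.0076). Erg, a factor that defines endothelium, had 9.34, 9.34 and 9.24 in the TGFβ1 cultures, 10.72, 10.71 and 8.55 in the SB cultures and 10.34, 10.43 and 10.35 in the DMSO cultures, and was called only without SB replicate 3 (-1.41, adjusted p = 6.8e-07), as were Egfl7, Esam and Sox7 at -1.77, -1.68 and -1.42 (adjusted p = 3.8e-07, 7.0e-07 and 3.8e-07).

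Vascular growth factors were called in both directions, 5 higher and 4 lower of 20, and 6 higher and 9 lower without SB replicate 3. Over all genes the shares were 4.55% higher and 3.31% lower, and 7.15% and 7.55% without that culture. Pgf, placental growth factor, had 11.64, 11.64 and 11.73 in the TGFβ1 cultures, 9.28, 9.43 and 9.12 in the SB cultures and 9.84, 10.00 and 9.88 in the DMSO cultures, and was graded (2.39, adjusted p = 3.1e-06). Angpt4 and the related Angptl7 were graded and higher by 2.49 and 2.33 (adjusted p = 1.3e-06 and 9.1e-05), and Pdgfb was TGFβ1-sided at 1.5 (adjusted p = 5.9e-06). Angpt2, an angiopoietin of endothelial cells, had 7.87, 7.97 and 7.81 in the TGFβ1 cultures, 10.59, 10.66 and 8.69 in the SB cultures and 9.87, 9.71 and 9.82 in the DMSO cultures. It was TGFβ1-sided at -2.09 (adjusted p = 0.022) and graded without SB replicate 3 (-2.74, adjusted p = 1.3e-07). How far endothelial content takes part in these differences was not tested.

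Genes of mitosis and DNA replication were lower in 5 of 27 cases with all cultures and in 26 of 27 without SB replicate 3. The list averaged 9.09, 8.91 and 8.95 in the TGFβ1 cultures, 9.90, 10.03 and 9.10 in the SB cultures and 9.76, 9.62 and 9.74 in the DMSO cultures. SB replicate 3 lay close to the TGFβ1 cultures, and no member was called higher in either fit. Mcm7, of the replication helicase, had 9.0, 8.71 and 8.84 in the TGFβ1 cultures, 9.83, 9.95 and 9.51 in the SB cultures and 9.63, 9.64 and 9.61 in the DMSO cultures, and was called in both fits (-0.91, adjusted p = 0.0015), as were Bub1b of the spindle checkpoint and Ccnb2, a mitotic cyclin (-0.98 and -0.91, adjusted p = 0.012 and 0.024). The kinase Aurkb and the cyclin Ccna2 were called only without SB replicate 3 (-1.16 and -1.24, adjusted p = 8.3e-06 and 5.0e-06). Of the 26, 7 were graded and 18 TGFβ1-sided.

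**Figure D4:**
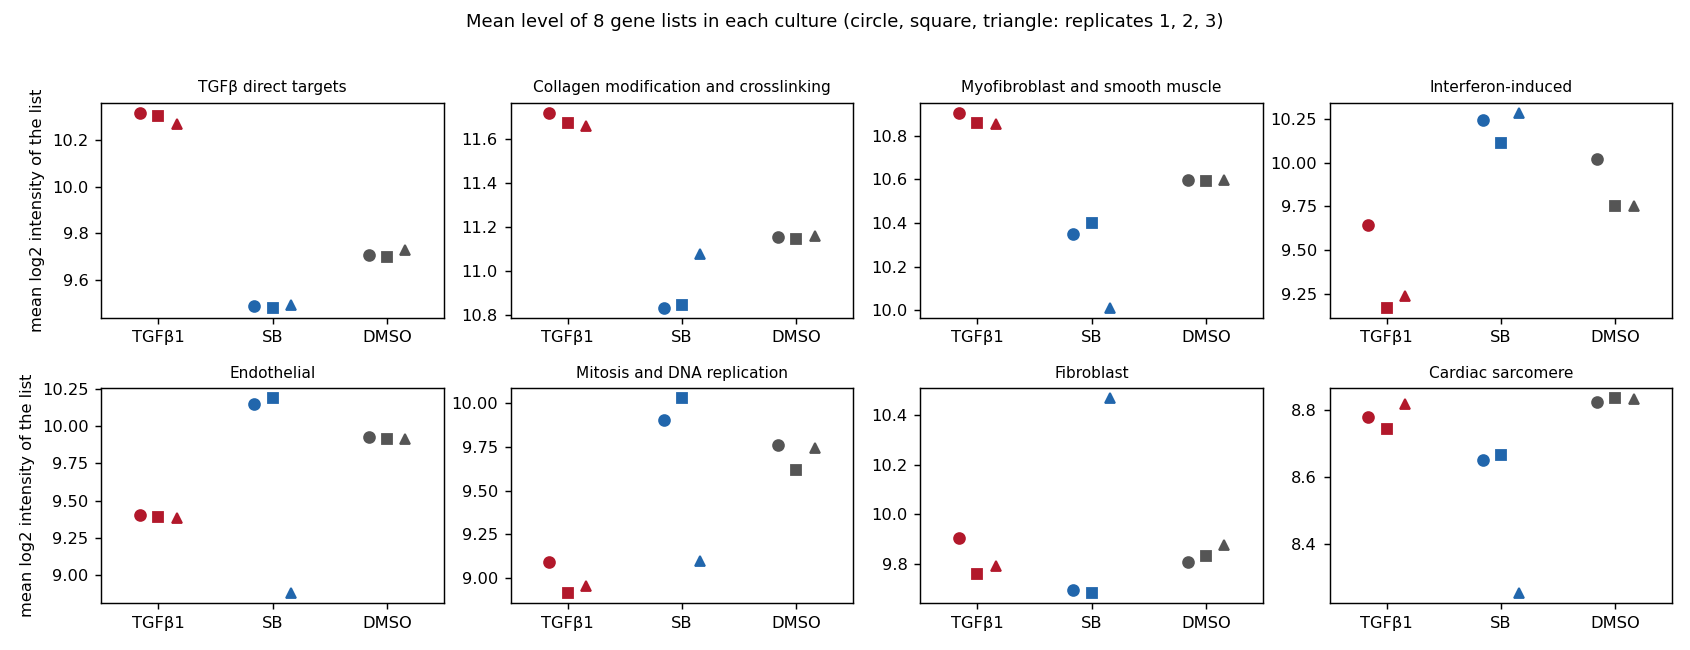
Mean log2 intensity of 8 gene lists in each of the 3 TGFβ1, 3 SB and 3 DMSO cultures. TGFβ targets, collagen processing and interferon genes separate TGFβ1 from SB in every culture. SB replicate 3 (triangle) leaves the other SB cultures for the endothelial, mitotic, fibroblast, sarcomere and myofibroblast lists. For collagen processing it lies above them as well, at 11.08 beside 10.83 and 10.85.

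Fibroblast genes and signalling lists were also called in both directions. Among all genes 4.55% were higher and 3.31% lower with all cultures, and 7.15% and 7.55% without SB replicate 3. Of 22 fibroblast genes 3 were higher and 3 lower with all cultures, and 8 were higher and 4 lower without SB replicate 3. Among them were Sfrp2, a secreted Wnt modulator, graded at 1.65 (adjusted p = 6.5e-05) and the transcription factor Prrx1 graded the other way at -1.74 (adjusted p = 0.038). Vim, vimentin, was not called (-0.02, adjusted p = 0.81), and S100a4 was called only without SB replicate 3 (-0.58, adjusted p = 0.0052). Of 30 genes of Wnt, Notch and IGF signalling 6 were higher and 3 lower (10 and 4 without SB replicate 3). Igf2 had 7.75, 7.98 and 7.94 in the TGFβ1 cultures, 9.83, 9.60 and 9.58 in the SB cultures and 9.61, 9.57 and 9.64 in the DMSO cultures (-1.79, adjusted p = 1.0e-05), so Igf1 and Igf2 moved in opposite directions. Wnt11 was higher by 0.73 (adjusted p = 1.7e-04).

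Of 17 adipocyte genes 1 was higher and 2 lower (4 and 2 without SB replicate 3). With all cultures 4.55% of all genes were higher and 3.31% lower, so the 1 higher adipocyte gene was near that share. The fatty acid carrier Fabp4, also found in endothelium, had 6.95, 6.97 and 6.91 in the TGFβ1 cultures, 8.54, 8.80 and 8.30 in the SB cultures and 7.51, 7.50 and 7.43 in the DMSO cultures and was graded (-1.60, adjusted p = 6.7e-05), as was the lipase Lpl (-1.75, adjusted p = 0.021). Of 13 epicardial and mesothelial genes 2 were higher, the keratins Krt8 and Krt18 at 1.54 and 1.20 (adjusted p = 0.0016 and 0.048), and 1, Aldh1a2, was lower (2 and 3 without SB replicate 3). Of 16 leukocyte genes 1 was higher and none lower in either fit, a share near the 4.55% of all genes. It was Csf1r, the receptor of macrophage growth factor (1.3, adjusted p = 6.7e-04). The list averaged 6.61, 6.63 and 6.67 in the TGFβ1 cultures, 6.56, 6.55 and 6.68 in the SB cultures and 6.47, 6.66 and 6.59 in the DMSO cultures. None of 11 reference genes was called in either fit.

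The study's own lists, of genes that SB raised or lowered against DMSO in both MEFs and CFs, were chosen on arrays used here and are not independent evidence of direction. Of 11 entries that it lists as lowered by SB, all 10 other than miR-181 were higher with TGFβ1 than with SB, and 9 were graded. The microRNA, named there as 181a-1, was not called at its locus Mir181a-1 (0.10, adjusted p = 0.17). The genes included Adamtsl2, Lox, Itgb5, Nrep and Pdlim3, which also stand in the lists above, so those counts are not independent of the choice either. A further one was Nupr1, a stress-response regulator, with 12.78, 12.96 and 12.77 in the TGFβ1 cultures, 11.35, 11.43 and 12.28 in the SB cultures and 12.18, 12.11 and 12.15 in the DMSO cultures (1.15, adjusted p = 0.011). Of 19 listed as raised by SB, 14 were lower with TGFβ1 than with SB and 5 were graded. Without SB replicate 3 all 19 were lower and 15 were graded. Several of the 19, among them Slfn5, Serping1, Lbp, Tgfbr3, Bmp2, Pln and Angpt2, also stand in the lists above. The counts of those lists are likewise not independent of the choice. Slc10a6, a carrier of steroid sulfates, had 6.53, 6.87 and 6.67 in the TGFβ1 cultures, 8.74, 8.87 and 7.24 in the SB cultures and 7.80, 7.72 and 7.95 in the DMSO cultures (-1.59, adjusted p = 0.031). Scara3 and Gucy1b1, a subunit of the nitric oxide receptor, were graded at -1.40 and -1.43 (adjusted p = 7.5e-04 and 5.5e-04).

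Genes that both treatments moved the same way were few. The mean of the TGFβ1 and SB groups was compared with DMSO, and both steps had to reach 0.322 in 1 direction. This held for 2 higher genes (0.01% of those tested) and 6 lower genes (0.0301%), beside 232 graded genes. Without SB replicate 3 it held for 8 higher (0.0401%) and 23 lower (0.115%), and 4 genes met the rule in both fits. The numbers were unsteady, at 5 and 0 without DMSO replicate 1, 0 and 0 without DMSO replicate 3, 1 and 1 under the replicate block and 0 and 2 where both contrasts against DMSO had to be called.

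Mpzl2, an epithelial adhesion protein, was the higher gene with the larger change. It had 10.05, 9.92 and 10.01 in the TGFβ1 cultures, 7.55, 7.63 and 8.22 in the SB cultures and 7.43, 7.27 and 7.27 in the DMSO cultures, so nearly all of its rise came with TGFβ1, and TGFβ1 and SB differed by 2.19 (adjusted p = 8.9e-05). Ubash3b, a phosphatase of immune receptor signalling, had 8.35, 8.19 and 8.35 in the TGFβ1 cultures, 8.09, 8.07 and 8.23 in the SB cultures and 7.85, 7.71 and 7.69 in the DMSO cultures. Here both treatments lay close together (0.16, adjusted p = 0.2) and above DMSO without overlap.

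Among the lower genes, Ecrg4 had 8.48, 8.61 and 8.61 in the TGFβ1 cultures, 8.49, 8.47 and 8.21 in the SB cultures and 9.15, 9.10 and 9.22 in the DMSO cultures. It was the clearest case, with the mean of both treatments -0.68 from DMSO (adjusted p = 0.0083) and a TGFβ1 minus SB difference of 0.17 (adjusted p = 0.26). Apela, a peptide ligand of the apelin receptor, was dim, with 5.37, 5.36 and 5.26 in the TGFβ1 cultures, 5.34, 5.23 and 5.30 in the SB cultures and 5.94, 5.61 and 5.84 in the DMSO cultures. Thbs4, a thrombospondin, had 7.93, 7.90 and 7.91 in the TGFβ1 cultures, 8.01, 7.90 and 7.88 in the SB cultures and 8.26, 8.33 and 8.24 in the DMSO cultures. At these 3 genes the TGFβ1 and SB differences were not called.

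Aldh1a2, which makes retinoic acid, Antxr1, a receptor that binds collagen, and Sema3e, a guidance cue for vessels, were lowest with TGFβ1, with SB between TGFβ1 and DMSO. Antxr1 had 10.28, 10.20 and 10.05 in the TGFβ1 cultures, 11.09, 11.09 and 10.80 in the SB cultures and 11.45, 11.36 and 11.30 in the DMSO cultures, and TGFβ1 and SB differed by -0.82 (adjusted p = 9.4e-04). Aldh1a2 differed by -0.41 (adjusted p = 0.035) and Sema3e by -0.32 (adjusted p = 0.057). Without SB replicate 3 these 3 and Mpzl2 no longer met the rule, since the step from SB to DMSO fell under 0.322. SB minus DMSO was then -0.29 at Aldh1a2, -0.28 at Antxr1, -0.23 at Sema3e and 0.27 at Mpzl2. New without that culture was, among others, Ccl2, a monocyte chemokine. Ccl2 had 11.06, 11.05 and 11.05 in the TGFβ1 cultures, 11.18, 11.18 and 12.38 in the SB cultures and 10.39, 10.36 and 10.51 in the DMSO cultures.

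**Figure D5:**
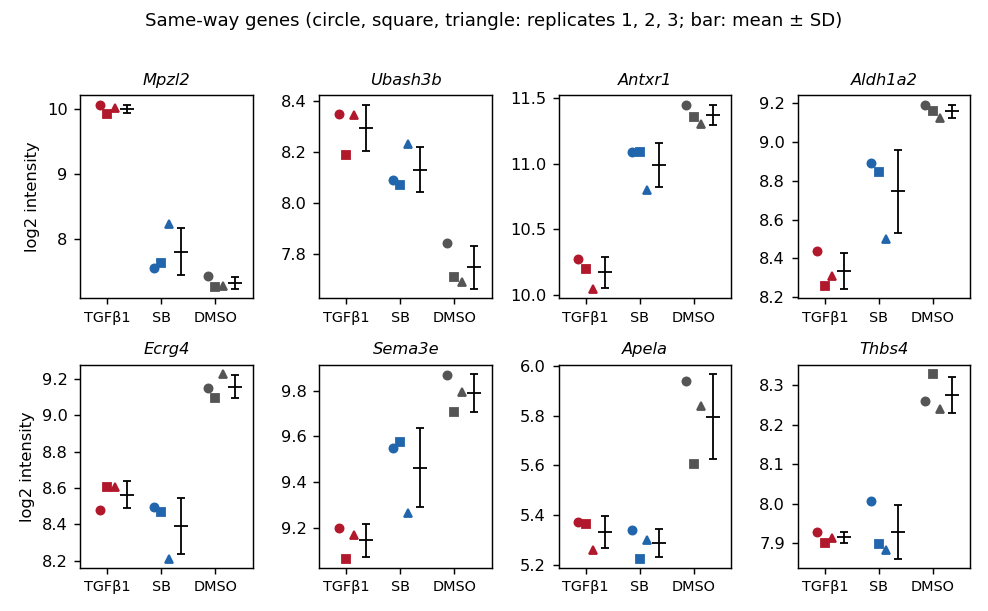
Log2 intensity in each of the 3 TGFβ1, 3 SB and 3 DMSO cultures for the 8 genes that both treatments moved the same way against DMSO. Ubash3b, Ecrg4, Apela and Thbs4 have TGFβ1 and SB side by side, whereas at Mpzl2, Antxr1, Aldh1a2 and Sema3e TGFβ1 moved further and SB replicate 3 (triangle) is the SB culture farthest from DMSO.

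MicroRNA loci were looked at because 1 family stood out, so their choice followed the values. MicroRNAs of a family share a seed, the bases by which they find targets. Of 300 loci on the array 4 were higher and none lower with all cultures, a smaller share than the 4.55% and 3.31% of all genes. Without SB replicate 3, 7 were higher and 4 lower, again a smaller share than the 7.15% and 7.55% of all genes. Of the 4 higher loci with all cultures, 3 were miR-181 loci. Their mature forms, from RefSeq, carry the same seed (bases 2 to 8, in capitals).
miR-181a-5p: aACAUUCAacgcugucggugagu
miR-181b-5p: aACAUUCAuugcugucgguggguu
Among the called miR-181 loci, the first comes from Mir181a-2 (chr2:38852741-38852763, plus strand). The second comes from Mir181b-2 (chr2:38853845-38853868, plus strand), which lies close to Mir181a-2, and from Mir181b-1 (chr1:137966650-137966673, plus strand). Loci that were not called are left out here as sources of these forms. Mir181b-2 had 8.51, 8.26 and 8.36 in the TGFβ1 cultures, 6.48, 6.41 and 6.09 in the SB cultures and 7.06, 6.73 and 7.0 in the DMSO cultures, and was graded (2.05, adjusted p = 4.2e-05). Mir181a-2 had 7.63, 7.28 and 7.39 in the TGFβ1 cultures, 6.59, 6.45 and 6.63 in the SB cultures and 6.86, 6.79 and 6.8 in the DMSO cultures (0.87, adjusted p = 5.5e-04). In both, all 9 cultures were in order. Mir181b-1 differed by 0.61 (adjusted p = 0.02), Mir181a-1 on the same chromosome by 0.10 (adjusted p = 0.17), and Mir181c and Mir181d by -0.01 and 0.03 (adjusted p = 0.99 and 0.97). These probe sets do not tell the mature RNA from its precursors.

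The TGFβ1 against SB difference was set against that of MEFs with HNGMT, by testing the difference of differences on all 27 arrays. SB was 5 µM in CFs and 0.5 µM in MEFs, and array medians were 7.36 to 7.43 in CFs and 7.83 to 7.91 in MEFs, so dose, cell type and any separate normalization cannot be told apart. The difference was higher in CFs at 610 genes (3.06%) and lower at 400 (2.01%), at an adjusted p under 0.05 and at least 1.5-fold. With SB replicate 3 left out these were 630 and 519, and 825 genes were in both.

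Eln was the gene with the largest difference between the cell types. TGFβ1 minus SB was 4.18 in CFs and -1.58 in MEFs, a gap of 5.76 ± 0.10 (SE, adjusted p = 3.8e-20), so elastin was higher with TGFβ1 than with SB in CFs and lower in MEFs. Gxylt2 and Igf1 were opposite in the same way, at 3.94 and 3.71 in CFs and -1.17 and -0.73 in MEFs (adjusted p of the difference = 1.7e-14 and 2.0e-14). In MEFs, however, the means of both treatments lay below DMSO at Eln, Gxylt2 and Igf1. With TGFβ1, SB and DMSO in turn, Eln averaged 8.38, 9.96 and 10.70 there. Gxylt2 averaged 9.15, 10.31 and 10.82, and Igf1 9.38, 10.10 and 10.30. Epyc, a cartilage proteoglycan, and Agtr2, an angiotensin receptor, were at 5.54 and 6.04 in the TGFβ1 CF cultures and 5.55 and 6.00 in the SB CF cultures, and in MEFs the differences were -4.23 and -4.19 (adjusted p of the difference = 2.3e-17 and 1.1e-14). Both were dim in CFs in all 3 groups, with DMSO means of 5.58 and 6.04.

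On the lower side, Prg4, lubricin, Mmp13, a collagenase, and Ppbp, a platelet chemokine, differed by -0.53, -0.43 and -0.40 in CFs and by 3.17, 2.34 and 2.27 in MEFs (adjusted p of the difference = 1.3e-05, 5.6e-07 and 1.1e-06). Gpr182 and Cd53 differed by -2.79 and -2.19 in CFs and by -0.04 and 0.75 in MEFs (adjusted p of the difference = 7.0e-06 and 9.6e-05). In DMSO CFs Prg4, Mmp13 and Ppbp averaged 6.28, 6.20 and 5.59, and in DMSO MEFs Gpr182 and Cd53 averaged 6.72 and 6.05. These values all lay below the array medians. Prg4 had 6.47, 6.59 and 6.60 in the TGFβ1 CF cultures, 6.37, 6.2 and 8.67 in the SB CF cultures and 6.21, 6.26 and 6.36 in the DMSO CF cultures, so its negative CF value rested on SB replicate 3, as did those of Mmp13 and Ppbp. Without that culture the CF differences were 0.27, -0.01 and 0.04, and the gaps to MEFs were -2.90, -2.35 and -2.23, with -3.32 at Gpr182 and -2.20 at Cd53. Among lists, the median TGFβ1 minus SB of interferon genes was -0.68 in CFs and -1.37 in MEFs, of direct TGFβ targets 0.58 in CFs and 0.42 in MEFs, and of elastic fibre genes 0.21 in CFs and -0.33 in MEFs. The lists' medians were not tested against each other.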

How the data were processed

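Whole-transcript Affymetrix mouse arrays (Gene 1.0 ST) measured total RNA of 27 cultures, each on its own array. The authors deposited 1 table of log2 values, for which the methods name MAS5 and PartekGS; the normalization is not given in the sources used here. The deposited log2 values were used as given, over 35556 probe sets (4.22 to 14.64). Of these 21789 carried 1 gene symbol, 1621 several and 12146 none, and for each gene the probe set with the highest mean was kept, which left 19938 genes. With arrays there is no read depth, so the 3 cultures per group limit the precision.

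Groups came from the labels. Linear models were fitted to the 9 CF arrays with 1 coefficient per group in limma 3.58.1 (R 4.3.3), and moderated tests were adjusted by Benjamini-Hochberg over all genes. Calls needed an adjusted p under 0.05 and a log2 difference of at least 0.322, the study's threshold for CFs. The comparison with MEFs used all 27 arrays and 1.5-fold. All tests were two-sided. The scripts were tested on simulated data. Replicate numbers were not taken to pair the cultures: same-numbered pairs had correlations of deviations of -0.248 to 0.651, over 0.1 in 4 of 9. The pairs between DMSO and TGFβ1 were all over 0.1, at 0.651, 0.555 and 0.117. Counts from a fit with the replicate number as a block are given below.

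Genes named were the 10 highest and 10 lowest calls, leading graded, same-way and interaction genes, up to 4 members per list by smallest p, all of the pathway lists and those the study names. Acta2, the delivered factors and the miR-181 loci lie outside this rule and were chosen after their values were seen. The gene lists and the comparison were chosen with earlier results of these data known. Of the list members 29 were not measured. Sequences are from RefSeq (GRCm38.p6).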

Additional observations from a re-analysis of the deposited data

Results flagged for a closer look

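The TGFβ1 over SB difference was tested for being unequal in CFs and MEFs with HNGMT. It was higher in CFs at 610 genes and lower at 400 (limma, adjusted p under 0.05, at least 1.5-fold), with 5361 of 19938 genes at an unadjusted p under 0.05. The named gaps, CFs minus MEFs, were 5.76 at Eln, 5.11 at Gxylt2, 4.44 at Igf1, 4.22 at Epyc and 4.22 at Agtr2. On the lower side they were -3.70 at Prg4, -2.94 at Cd53, -2.76 at Mmp13, -2.75 at Gpr182 and -2.67 at Ppbp. Without SB replicate 3 these became -2.90, -2.20, -2.35, -3.32 and -2.23. In DMSO CFs, Prg4, Mmp13, Ppbp, Epyc and Agtr2 all averaged below the array medians. Since SB was given at different doses in the cell types, the part of dose was not tested.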

How the results depend on the processing

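Counts moved more than directions. Of 3506 values of named genes under the alternatives, 3196 kept direction and side of the threshold, 213 lost the call, 74 gained it and 23 changed sign, at 12 genes, none of them called with all arrays. With 6 arrays (no DMSO) 438 genes were lower with TGFβ1, and with all 27 arrays 1155 were. Same-way genes numbered 29 higher and 69 lower with 27 arrays, 22 and 37 with array weights, 0 and 1 at a fold of at least 1.5, and 0 and 2 where both contrasts against DMSO had to be called; with 6 arrays they could not be fitted. With array weights 1526 were higher and 1570 lower, with 183 graded lower, but weights were uneven, at 0.0742 for SB replicate 3 and 17.4 for DMSO replicate 3 against 0.321 and 0.426 for the other DMSO cultures. At a fold of at least 1.5, 479 were higher and 329 lower. Asking only that the DMSO mean lie between gave 803 higher and 558 lower, and all 9 cultures in order gave 341 and 197. Under the replicate block 869 were higher and 617 lower, 140 and 85 were graded, and the same-way genes were 1 and 1; 5 of 9 cultures correlated best with their own number. Leaving out 1 culture at a time gave 694 to 1426 higher, 397 to 1506 lower, 126 to 178 graded higher, 59 to 231 graded lower, 0 to 8 same-way higher and 0 to 23 same-way lower, each maximum without SB replicate 3 and the fewest lower calls without TGFβ1 replicate 2. Signs turned with array weights at Apela (-0.0283), Hand2 (0.0031), Ppbp (0.0144), Prg4 (0.2070) and Tbx5 (-0.2475), and with quantile normalization at Mir181c (0.0217) and Thbs4 (0.0242). Leaving out 1 culture at a time turned the sign of others, with differences of -0.0148 to 0.0133 at Epyc, -0.1202 to 0.0144 at Hand2, -0.1885 to 0.0832 at Mef2c, -0.0572 to 0.0233 at Mir181c, -0.0231 to 0.0804 at Mir181d, -0.0225 to 0.0826 at Nkx2-5, -0.6168 to 0.0423 at Ppbp, -0.9676 to 0.2653 at Prg4, -0.2296 to 0.3395 at Tbx5, -0.3844 to 0.1379 at Tgfb2 and -0.0375 to 0.0248 at Thbs4. The cause was not tested. The other alternatives (moderation with trend, dim genes left out, mean of probe sets, quantile normalization) kept each count within 1.5 times.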
